A study of Mus musculus with 4 samples.

Results

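The genes described here take up, carry, store and export lipid, or switch on other genes that do: Cd36, Lpl, Fabp4, Fabp5, Plin2, Apoe, Abca1, Abcg1 and Pparg. They were picked by symbol, 9 of 43346 genes in the tables, with their difference between blood monocytes (MON) and neutrophils (NEU) already known. Their levels in MON against NEU are therefore given as a description, with no p-value, and the calls counted for them further on support nothing. In brief, 6 of them were at least 5.37-fold (Plin2) and up to 197-fold (Fabp4) higher in MON, whereas the cholesterol exporter Abca1 was 2.56-fold higher in NEU. Fabp5 and Abcg1 were 1.129-fold and 1.116-fold higher in MON.

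Total RNA was sequenced from peripheral blood of adult, untreated C57BL6 mice, in 2 libraries of each cell type. Per the labels, MON were sorted as Gr-1+Mac-1+ cells from the mononuclear layer of a density gradient, and NEU were recovered from its pellet after red cell lysis. The study's methods describe the mice as males, and its list of samples gives another monocyte gate, Ly6g- and CD11b+, and NEU as not sorted. Replicates could be separate groups of mice or aliquots from 1 sort, so their spread may be technical. Values are RSEM expected counts per 1000000 counts of the library (CPM), and transcripts scaled to the same sum in every library (TPM) where genes are compared with each other, because TPM corrects for transcript length.

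Library totals ran from 20549572 to 26076261 expected counts. The NEU libraries went against the described males: Xist, the RNA of the inactive X chromosome, had 5088 and 4878 counts in the NEU libraries and 0 in both MON libraries. The Y-linked gene Ddx3y had counts in all 4, at 9814 and 9847 in MON against 3479 and 2782 in NEU. The NEU libraries thus carried both Xist and Y-linked RNA and the MON libraries only the latter, so sex and cell type cannot be told apart in any value below. The MON label was checked against markers, in lists chosen with earlier results of these data known. The monocyte genes Csf1r (1046 and 1130 CPM against 156 and 143) and Lyz2 (7103 and 6764 CPM against 1178 and 1246) were high in MON, and all 9 markers of nonclassical, patrolling monocytes were called higher there. Ly6c2, which marks classical monocytes, was low in every library, at 21.1 and 26.2 CPM in MON and 17.04 and 19.74 CPM in NEU. Of 10 neutrophil markers 9 were called higher in NEU and 1, Retnlg, in MON (224 and 235 CPM against 174 and 195). The most abundant, Csf3r, had 2497 and 2325 CPM in NEU and 62.9 and 87.0 in MON. S100a9 had 1768 and 2161 CPM in NEU and 4.83 and 5.29 in MON. Ly6g and Camp were at 0 in MON and were the lowest of the list in NEU. There they had 6.70 and 5.74 CPM for Ly6g and 1.20 and 0.827 CPM for Camp. Markers of other cells also differed: all 8 natural killer (NK) cell markers were higher in MON, with summed CPM of 2510 and 2495 against 25.9 and 26.4, and all 8 B cell markers were higher in NEU, at 2466 and 2406 against 308 and 387. Of 8 T cell markers 7 were higher in NEU, where they summed to 127 and 133 CPM against 17.6 and 19.9. Of 8 red cell markers 4 were higher in NEU and 1 in MON. Of 9 classical monocyte markers 4 were higher in MON and 4 in NEU. Marker calls are from the same edgeR fit, in which 42.6% of all tested genes were called, 20.8% higher in MON and 21.8% higher in NEU. The part of these other cells in the values below was not tested, and marker levels are printed beside the genes that those cells are known to express. In such bulk samples fewer cells of a type and less RNA per cell cannot be told apart.

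Lipid reaches a phagocyte as free fatty acid or inside lipoproteins and dying cells. Lipoprotein lipase frees fatty acids from triglyceride outside the cell, scavenger receptors such as CD36 bring in fatty acids and oxidised lipoprotein, and fatty acid binding proteins carry them through the cytosol. What is not burned is stored in droplets coated by perilipins. Surplus cholesterol leaves through the ABC transporters ABCA1 and ABCG1 onto lipoproteins, with apolipoprotein E as 1 acceptor. PPAR-gamma and the liver X receptors (LXR), nuclear receptors that bind lipids and pair with RXR, switch on many of these genes, and macrophages that take up more lipid than they release become foam cells.

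RefSeq promoter windows (GRCm38.p6, from 250 bases before to 50 after the annotated start) were matched for 5 of the 9 genes, in 9 windows. The 3 genes with a single window are printed 5′ to 3′ on their own strand, Abca1 as the gene with the higher NEU level and Cd36 and Plin2 as 2 genes with the higher MON level. Capitals mark the motifs searched on both strands. The AGGTCA hexamer is a single unit of nuclear receptor sites (in 16.3% of 32851 windows). With it were searched the E-box CACGTG (7.15%), the PU.1-type core GAGGAA (28.3%), the GC box GGGCGG (35.7%) and the TATA box TATAAA (13.6%). A spaced pair of receptor units was searched too, TGACC and TAACC with 5 bases between them (0.0487%, or 16 windows). The last was chosen with the Abca1 sequence in view, after the kind of element that LXR and RXR bind together.
Abca1, chr4:53159846-53160145, minus strand: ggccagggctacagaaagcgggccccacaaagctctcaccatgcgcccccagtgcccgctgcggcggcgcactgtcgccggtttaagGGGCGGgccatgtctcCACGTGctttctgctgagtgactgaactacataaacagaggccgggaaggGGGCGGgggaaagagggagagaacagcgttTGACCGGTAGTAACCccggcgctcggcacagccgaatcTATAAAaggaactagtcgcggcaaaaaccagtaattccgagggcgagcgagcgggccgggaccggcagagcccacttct
Cd36, chr5:17835847-17836146, minus strand: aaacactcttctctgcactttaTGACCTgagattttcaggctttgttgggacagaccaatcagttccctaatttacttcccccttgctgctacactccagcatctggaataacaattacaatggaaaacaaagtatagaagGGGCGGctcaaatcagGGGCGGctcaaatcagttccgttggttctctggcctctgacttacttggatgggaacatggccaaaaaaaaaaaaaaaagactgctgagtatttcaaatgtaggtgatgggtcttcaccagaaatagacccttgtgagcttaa
Plin2, chr4:86670010-86670309, minus strand: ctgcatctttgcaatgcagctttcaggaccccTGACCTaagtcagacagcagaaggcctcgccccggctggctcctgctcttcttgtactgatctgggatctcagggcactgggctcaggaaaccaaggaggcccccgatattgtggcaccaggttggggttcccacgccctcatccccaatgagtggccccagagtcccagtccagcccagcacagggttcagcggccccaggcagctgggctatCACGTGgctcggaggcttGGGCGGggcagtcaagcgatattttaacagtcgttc

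The Abca1 window held the spaced pair as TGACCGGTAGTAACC, starting 67 bases before the start, with a TATA box at -29, an E-box at -147 and GC boxes at -163 and -97. The Cd36 window lies at a start inside the annotated gene, whose 5′ end on this strand is at chr5:17888801. Its motifs are those of that internal start. The Cd36 window held 1 AGGTCA hexamer, read as TGACCT on its strand, at -228 and GC boxes at -109 and -93. In Plin2 an AGGTCA hexamer lay at -218, an E-box at -4 and a GC box at 14 bases after the start. None of the 3 windows held GAGGAA in either orientation, which says only that these letters are not in these windows. These matches describe sequence and were not set against binding data.

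**Figure D1:**
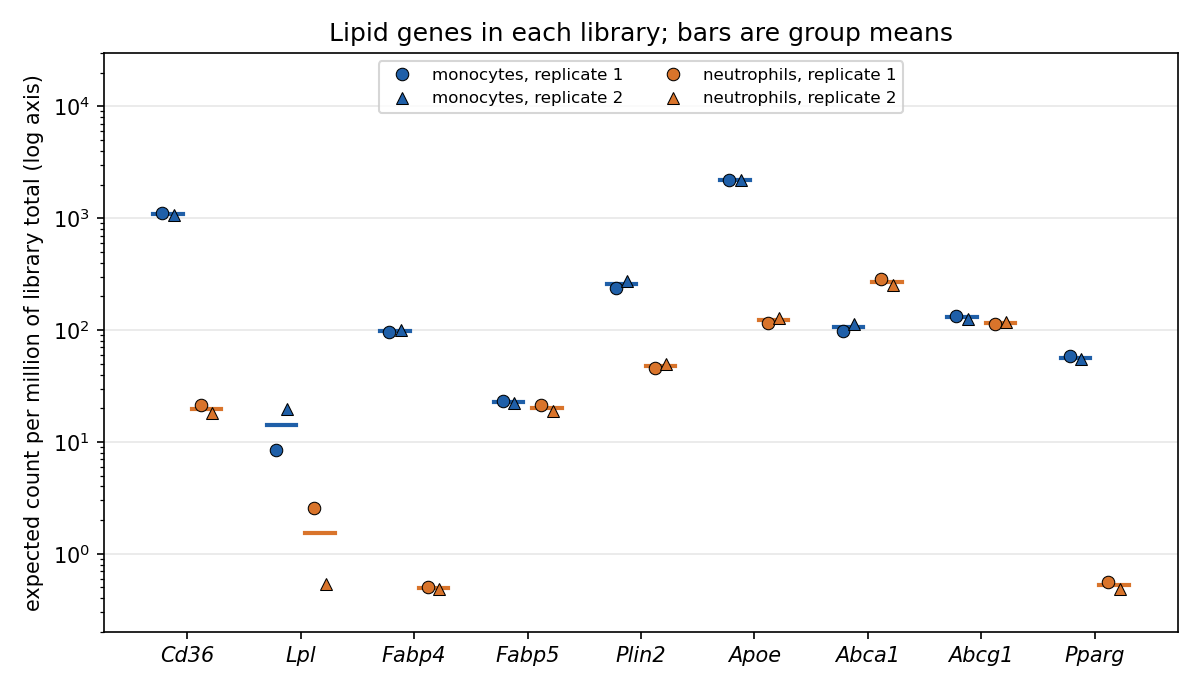
CPM (log axis) for the 9 genes, ordered by role, in each MON and NEU library, with the group mean as a bar. Apoe and Cd36 stand highest in MON, at means of 2204 and 1096 CPM, Fabp4 and Pparg lie under 1 CPM in NEU, and Abca1 alone has its NEU libraries above its MON libraries.

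Of the genes of uptake, Cd36 (ENSMUSG00000002944.11, chr5:17781690-17888801, minus strand, mm10) encodes the fatty acid translocase and class B scavenger receptor. It had 29195 and 27374 counts in MON and 460 and 372 in NEU. In CPM these were 1120 and 1072 against 21.3 and 18.1. Both MON libraries stood far above both NEU libraries, with means of 1096 ± 33.7 and 19.7 ± 2.23 CPM (SD, n = 2 each), a 55.7-fold difference and a log2 fold change of 5.80 ± 0.12 (SE). Cd36 is also a platelet and endothelial gene. Of 10 platelet markers none was called higher in MON, 5 were higher in NEU, Gp9 was at 0 in MON, and their summed CPM was 110 and 92.5 in MON against 154 and 163 in NEU. Of 9 endothelial markers only 3 were tested and Cdh5, Kdr and Tie1 were at 0 in MON. The summed endothelial CPM, 58.9 and 66.3 in MON against 17.7 and 20.3 in NEU, came mostly from Flt1 in MON (43.9 and 52.7 CPM against 2.36 and 2.14 in NEU) and mostly from Vwf in NEU (13.6 and 16.3 CPM, against 15.0 and 13.6 in MON). The part of either cell type in the Cd36 level was not tested.

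Lpl (ENSMUSG00000015568.11, chr8:68880491-68907448, plus strand), lipoprotein lipase, was the least reproducible of the genes. Its counts were 220 and 506 in MON and 55 and 11 in NEU, or 8.44 and 19.8 CPM against 2.54 and 0.535 CPM. The groups did not overlap, but the replicates differed 2.35-fold within MON and 4.75-fold within NEU. The means were 14.1 ± 8.04 and 1.54 ± 1.42 CPM (SD, n = 2 each), and the log2 fold change of 3.19 ± 0.79 (SE) moved to 3.66 without MON replicate 1, 2.42 without MON replicate 2, 4.69 without NEU replicate 1 and 2.45 without NEU replicate 2. Its level passed 1 TPM in 1 library, MON replicate 2 at 1.06 TPM.

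The carriers of fatty acid inside the cell, FABP4 and FABP5, are encoded by nearby genes on chromosome 3. Fabp4 (ENSMUSG00000062515.3, chr3:10204088-10208576, minus strand), known from adipocytes and macrophages, had 2518 and 2543 counts in MON and 11 and 10 in NEU, or 96.6 and 99.6 CPM against 0.508 and 0.487. It had the widest difference of the 9, with means of 98.1 ± 2.13 and 0.498 ± 0.0154 CPM (SD, n = 2 each), 197-fold, and a log2 fold change of 7.61 ± 0.17 (SE). Fabp5 (ENSMUSG00000027533.10, chr3:10012548-10016607, plus strand), the epidermal type carrier, had 23.2 and 22.1 CPM in MON and 21.2 and 19.0 CPM in NEU. Its log2 fold change was 0.17 ± 0.16 (SE), about the size of its error. Per transcript length Fabp4 was 3.74 and 4.01 times the level of Fabp5 in the MON libraries, whereas Fabp5 was 39.3 and 40.7 times the level of Fabp4 in the NEU libraries. All 6 adipocyte markers were at 0 in every library. Endothelial markers are given with Cd36 and resident macrophage markers with Apoe. The part of any of these cells in the Fabp4 level was not tested.

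Plin2 (ENSMUSG00000028494.8, chr4:86648386-86670060, minus strand) encodes perilipin 2, the coat protein of lipid droplets in cells other than adipocytes. It had 237 and 276 CPM in MON and 45.6 and 49.9 CPM in NEU. The libraries did not overlap, with means of 256 ± 27.0 and 47.7 ± 3.04 CPM (SD, n = 2 each), a 5.37-fold difference and a log2 fold change of 2.42 ± 0.12 (SE). The mean effective length that RSEM assigned to Plin2 was 1.24 times longer in MON. It was 1082 and 1217 bases in MON against 784 and 1076 in NEU, so NEU replicate 2 was close to MON replicate 1. With that length as an offset the log2 fold change was 2.09.

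Apoe (ENSMUSG00000002985.11, chr7:19696109-19699188, minus strand), apolipoprotein E, was the most abundant of the 9 in both cell types. It had 57365 and 56397 counts in MON and 2518 and 2656 in NEU. These were 2200 and 2208 CPM against 116 and 129, with means of 2204 ± 5.96 and 123 ± 9.09 CPM (SD, n = 2 each), a 17.9-fold difference. The log2 fold change was 4.16 ± 0.10 (SE). On the TPM scale Apoe stood at 690 and 624 in MON, where only 6 protein-coding genes had a higher mean TPM, and at 34.6 and 35.1 in NEU, where 350 did. Tissue macrophages are a known source of Apoe. Of 10 resident macrophage markers 2 were tested and both were higher in MON, C1qb, Vsig4, Timd4 and Marco were at 0 in all libraries, and the summed CPM of 457 and 444 in MON against 61.3 and 58.3 in NEU came almost wholly from Adgre1, which blood monocytes also express.

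Abca1 (ENSMUSG00000015243.4, chr4:53030787-53159895, minus strand), which loads cholesterol and phospholipid onto lipid-poor apolipoproteins, was the 1 gene of the 9 with the higher level in NEU. It had 98.4 and 113 CPM in MON and 288 and 253 CPM in NEU. Both NEU libraries lay above both MON libraries, with means of 271 ± 24.99 and 106 ± 10.02 CPM (SD, n = 2 each), a 2.56-fold difference and a log2 fold change of -1.36 ± 0.11 (SE). On the TPM scale the difference was 2.97-fold, since the RSEM length of Abca1 was 1.18 times longer in MON, and with length as an offset the log2 fold change was -1.59. The B cell markers given above were also higher in NEU, and their part in the Abca1 level was not tested.

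Abcg1 (ENSMUSG00000024030.6, chr17:31057675-31117988, plus strand), which passes cholesterol on to mature high density lipoprotein, differed little. It had 133 and 126 CPM in MON and 114 and 118 CPM in NEU, and its log2 fold change was 0.16 ± 0.09 (SE). The gene overlaps the ribosomal RNA gene Gm25447 on the same strand, which had between 0 and 5 counts per library. The balance of the pair therefore differed between cell types: Abcg1 was 4.11 and 3.28 times the TPM of Abca1 in the MON libraries and 1.11 and 1.20 times in the NEU libraries.

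Pparg (ENSMUSG00000000440.8, chr6:115360951-115490399, plus strand) encodes the nuclear receptor PPAR-gamma, of which Cd36, Fabp4, Plin2 and Lpl are known targets. It had 1530 and 1400 counts in MON and 12 and 10 in NEU, or 58.7 and 54.8 CPM against 0.555 and 0.487. The means were 56.7 ± 2.73 and 0.521 ± 0.0481 CPM (SD, n = 2 each), a 109-fold difference, with a log2 fold change of 6.75 ± 0.20 (SE). An annotated antisense gene, Gm44079, overlaps Pparg and was not analysed here. Whether reads were counted by strand is not stated in the sources used here. Eosinophils, adipocytes and some tissue macrophages also express Pparg: of 7 eosinophil markers 3 were tested and 1, Ccr3, was higher in MON (166 and 172 CPM against 12.20 and 12.99), while Epx was at 0 in MON. Of 7 basophil markers all 6 tested were higher in MON, with summed CPM of 115.5 and 132.8 against 6.84 and 6.64. The part of these cells in the Pparg level was not tested.

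**Figure D2:**
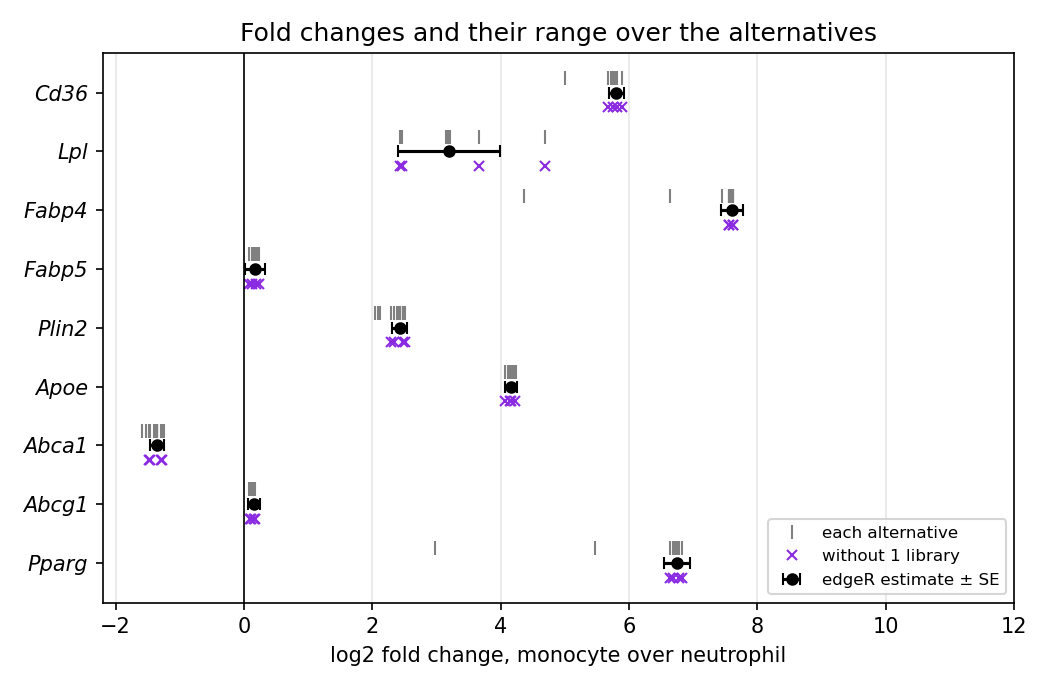
Log2 fold change of each gene, MON over NEU, as the edgeR estimate with its standard error (black), under each of 15 alternative settings (grey ticks) and with 1 library left out (violet crosses). No gene crosses 0, and Fabp4 and Pparg move most, to 4.37 and 2.98 with 1 added to each TPM.

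All 9 genes passed the filter on low counts. By edgeR 6 were called higher in MON (Cd36, Lpl, Fabp4, Plin2, Apoe and Pparg) and 1 higher in NEU (Abca1), against 20.8% and 21.8% of all 14309 tested genes (42.6% in either direction), and nothing is read from these counts because the choice of the genes used the same contrast. The CPM of the 2 groups did not overlap for any of the 9, 8 of them higher in MON and 1 in NEU, against 35.2% and 39.9% of tested genes. The nearest to no difference were Abcg1 and Fabp5. With small values the size of the fold change depended on the scale: on log2(TPM + 1) in limma it was 4.37 for Fabp4, 2.98 for Pparg and 5.002 for Cd36, because the added 1 exceeds or nears their NEU level.

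The 9 genes took up 0.398% and 0.399% of all counts in the MON libraries and 0.0610% and 0.0589% in the NEU libraries. The makeup of that share also differed. Apoe held 55.3% of it in each MON library and Cd36 held 28.2% and 26.9%. In the NEU libraries Abca1 held 47.2% and 42.9%, Apoe 19.1% and 21.9%, and Cd36 3.48% and 3.07%. Because these are counts, the long Abca1 transcript weighs more here than per transcript.

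Ordered by mean TPM, the MON levels ran from Apoe through Cd36, Plin2, Fabp4, Abcg1, Pparg, Fabp5 and Abca1 to Lpl, and the libraries of neighbours in that order were apart for every pair except Abcg1 and Pparg. The NEU order was Apoe, Plin2, Abcg1, Abca1, Fabp5, Cd36, Fabp4, Lpl and Pparg. There the ranges met or overlapped for Abcg1 with Abca1, Fabp4 with Lpl and Lpl with Pparg. Apoe was 8.93 and 9.33 times the TPM of Cd36 in MON but 24.3 and 30.8 times in NEU. At least 1 TPM was reached by 8 and 9 of the genes in the MON libraries and by 6 in each NEU library.

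**Figure D3:**
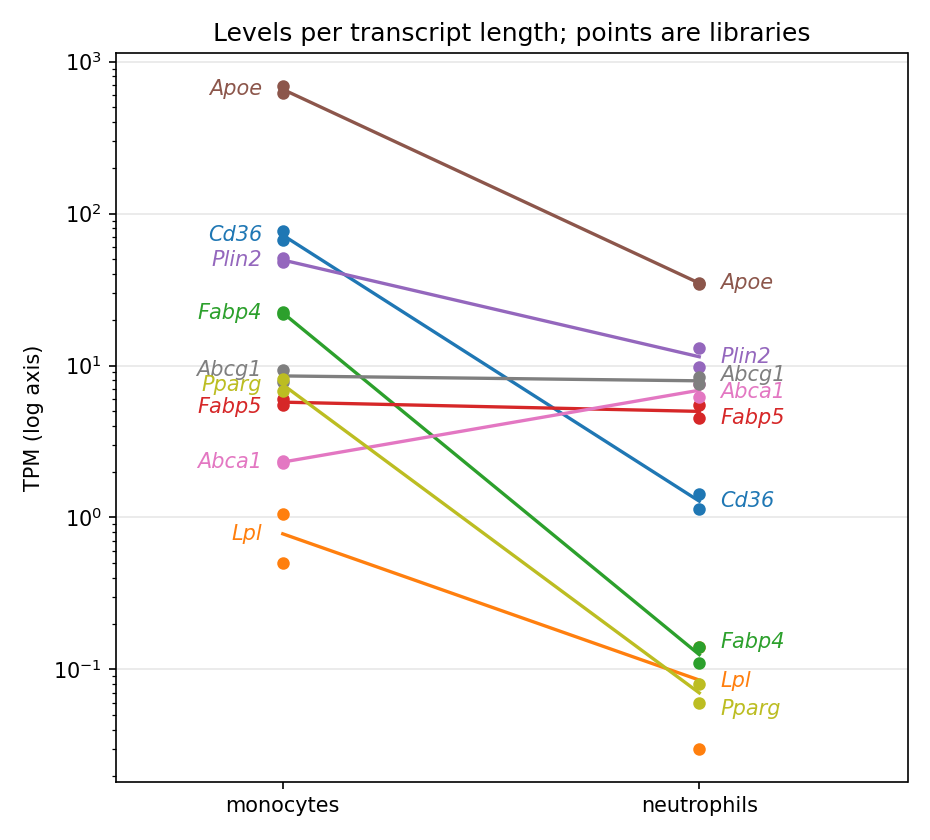
TPM of the 9 genes (log axis) in MON and NEU, with a point for each library and a line joining the group means. Apoe tops both columns, Cd36 drops from second in MON to below Fabp5 in NEU, and the Abca1 line is the only one that climbs toward NEU.

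Genes with the most similar levels were sought for the 3 genes with the highest mean CPM, by the Euclidean distance of log2(CPM + 1) over the 4 libraries, which says nothing of shared function or control. Nearest to Apoe were Spn (distance 0.615), a leukocyte surface sialoglycoprotein and 1 of the nonclassical monocyte markers, Ctsb (0.968), a lysosomal protease, and Itgb1 (1.33), an integrin chain. Spn had 1969 and 2024 CPM in MON and 95.4 and 90.7 in NEU. Nearest to Cd36 were Adgre4 (0.785), another nonclassical monocyte marker, Rgs1 (0.865), a regulator of G protein signalling, and Gzma (1.21), an NK cell granzyme. Nearest to Abca1 were Rlf (0.163), a zinc finger gene, Rac2 (0.187), the small GTPase of the phagocyte oxidase, and Tut4 (0.260), an RNA uridylyltransferase. Rac2 had 101 and 110 CPM in MON and 256 and 242 in NEU.

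The contrast was then tested in 195 further genes of lipid handling, in 9 lists by function that leave out the 9 genes above. The lists too were chosen with earlier results of these data known. Their counts and adjusted p-values therefore describe these libraries and give no independent support. Of the 195 genes 150 were tested, 54 were called higher in MON, 34 higher in NEU and 62 were not called. The median log2 fold change was 0.28 beside -0.06 over all tested genes. That is 36% in MON and 22.67% in NEU, against 20.8% and 21.8% of all tested genes. Single lists had from 15.79% to 68.75% of their tested genes higher in MON and from 5% to 47.37% higher in NEU. The counts per list below are to be read beside the shares of all tested genes. Leaving out 1 library moved the NEU count to 42 without MON replicate 1, 46 without MON replicate 2, 18 without NEU replicate 1 and 20 without NEU replicate 2. The adjusted p-values that follow are from edgeR's quasi-likelihood F test with Benjamini-Hochberg adjustment over all tested genes.

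**Figure D4:**
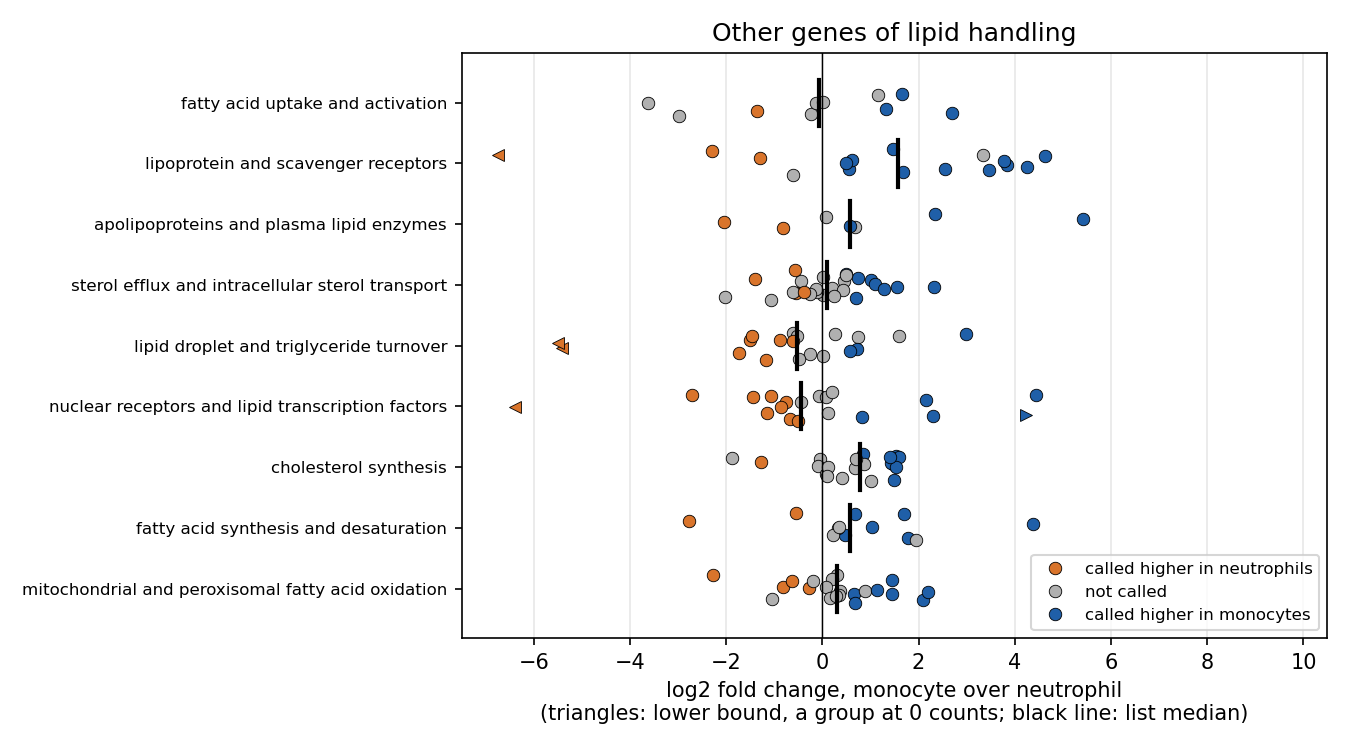
Log2 fold change, MON over NEU, of the 150 tested genes in the 9 lists (rows), coloured by call, with the list median as a black line and triangles for genes at 0 counts in 1 group, drawn at their lower bound. The lipoprotein receptor list lies mostly to the right, with 11 of 16 called higher in MON, and the droplet and nuclear receptor lists have medians left of 0.

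By number of genes, receptors for lipoproteins and modified lipid lay mostly on the MON side. Their summed CPM was higher in NEU, at 2465 and 2347 against 1720 and 1776 in MON, with Sorl1 the largest part in NEU. Of 19 genes 16 were tested, 11 were higher in MON and 3 in NEU, with a median log2 fold change of 1.57. Lrp1, the large receptor for remnant lipoproteins that carry ApoE, rose from 30.7 and 27.6 CPM in NEU to 547 and 574 in MON (log2 fold change 4.26 ± 0.10 SE, adjusted p = 2.17e-05). Cd68, a scavenger receptor family member of the lysosome, was higher by 1.48 ± 0.11 (adjusted p = 0.000375). Scarb1, Msr1 and Olr1, scavenger receptors named after their values were seen, were also higher in MON, by 3.47, 2.55 and 3.77. On the NEU side were Sorl1, a sorting receptor that binds ApoE (1999 and 1897 CPM in NEU against 415 and 385, -2.29 ± 0.08, adjusted p = 4.02e-05), and, named after their values were seen, Mylip, a ubiquitin ligase (-1.29), and Stab1, with 147 and 117 counts in NEU and 0 in MON, at least 108-fold higher in NEU taking 3 counts over both MON libraries as the floor.

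Of 22 apolipoproteins and plasma lipid enzymes only 7 were tested and 9 were at 0 in all libraries, among them Apob and Lcat. Called higher were 3 in MON and 2 in NEU, with a median of 0.58, and leaving out either NEU library reduced the NEU count to 1. Apoc2, the activator of lipoprotein lipase and a neighbour of Apoe in the genome, had 120 and 105 CPM in MON and 3.004 and 2.239 in NEU (5.42 ± 0.19, adjusted p = 4.02e-05). Apobr, a receptor for ApoB48 lipoproteins, was higher by 0.58 ± 0.13 (adjusted p = 0.0177), a call lost without NEU replicate 2, at 0.41, and in both limma fits. Pltp, the phospholipid transfer protein, named after its values were seen, was higher in MON by 2.34.

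Fatty acid uptake and activation showed no common side. Of 20 genes 10 were tested, 3 were higher in MON and 1 in NEU, with a median of -0.06. The MON count became 5 without MON replicate 1, and the NEU count 3 without MON replicate 1 and 5 without MON replicate 2. Dbi, the binding protein for acyl-CoA, had 41.8 and 31.1 CPM in MON and 4.53 and 6.72 in NEU (2.69 ± 0.28, adjusted p = 0.00103). Acsl5, an acyl-CoA synthetase, had 204 and 189 CPM in MON and 78.8 and 77.8 in NEU (1.33 ± 0.09, adjusted p = 0.000247). The gene higher in NEU was Slc27a4, a fatty acid transport protein, named after its values were seen, at -1.36.

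Sterol efflux and transport inside the cell was mixed as well. Of 28 genes 26 were tested, 8 were higher in MON and 4 in NEU, 14 passed in neither direction, and the median was 0.10. The MON count was 5 without NEU replicate 1, and the NEU count was 7 without MON replicate 2 and 1 without either NEU library. Lipa, the lysosomal acid lipase that frees cholesterol from its esters, was higher in MON by 1.54 ± 0.12 (adjusted p = 0.000376). Its neighbours in that route, the lysosomal cholesterol exporters Npc1 and Npc2, named after their values were seen, were higher by 0.74 and 1.01. Gramd1a, a carrier of cholesterol from the plasma membrane to the endoplasmic reticulum, had 220 and 230 CPM in NEU and 78.7 and 92.2 in MON (-1.398 ± 0.11, adjusted p = 0.000441). Osbpl9, an oxysterol binding protein homolog, was higher in NEU by a small margin (-0.39 ± 0.08, adjusted p = 0.0103), and that call was lost without either NEU library, in both limma fits on TPM and with an effective length offset.

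Among lipid droplet and triglyceride genes, where Plin2 belongs by function, more were higher in NEU. Of 25 genes 19 were tested, 3 were higher in MON and 8 in NEU, with a median of -0.52. The MON count was 1 without NEU replicate 2 and the NEU count 5 without either NEU library. Pnpla2, the lipase that starts the breakdown of stored triglyceride, had 62.6 and 62.4 CPM in NEU and 14.6 and 22.8 in MON (-1.74 ± 0.23, adjusted p = 0.00262). Dgat1, which makes triglyceride, had 47.1 and 51.9 CPM in NEU and 20.7 and 23.5 in MON (-1.17 ± 0.15, adjusted p = 0.00212). G0s2, an inhibitor of that lipase, had 47.3 and 23.0 CPM in MON and 46.3 and 52.8 in NEU and was not called (adjusted p = 0.285), though it was called without MON replicate 1, at -1.12. Hsd17b11, a droplet dehydrogenase, was higher in MON by 0.57 ± 0.12 (adjusted p = 0.0126), a call lost without NEU replicate 2, at 0.45, and in limma on log2(TPM + 0.1). Of the other perilipins, named after their values were seen, Plin1 was at 0 in all libraries, Plin3 was not called (0.27, adjusted p = 0.284), and Plin4 and Plin5 had 55 and 49 and 61 and 50 counts in NEU and 0 in MON.

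The nuclear receptors and lipid transcription factors, the group of Pparg, had 5 of 19 tested genes higher in MON and 9 higher in NEU, with a median of -0.43. The NEU count was 4 without NEU replicate 1, level with the MON count there, 5 without NEU replicate 2, and 3 and 2 in the limma fits, where the MON count was 3. Insig1, which holds the sterol sensing machinery in the endoplasmic reticulum, had 91.9 and 90.6 CPM in MON and 18.9 and 22.1 in NEU (2.15 ± 0.13, adjusted p = 0.000202). Ncor1, a corepressor of nuclear receptors, had 338 and 309 CPM in MON and 572 and 522 in NEU (-0.76 ± 0.09, adjusted p = 0.00163), a call lost in limma on log2(TPM + 1), at -0.58, and on log2(TPM + 0.1), at -0.59. Nr1h2, which encodes LXR-beta, was not called (-0.06 ± 0.14, adjusted p = 0.755). The partners of PPAR-gamma and Abca1 were named after their values were seen. Nr1h3, which encodes LXR-alpha, had 243 and 159 counts in MON and 9 and 6 in NEU (4.43 ± 0.55, adjusted p = 0.00204). The RXR genes did not share a side. Rxra had 1101 and 1145 counts in MON and 169 and 203 in NEU (2.30 ± 0.18, adjusted p = 0.000447). Rxrb was higher in NEU, with 691 and 644 counts in MON and 889 and 846 in NEU (-0.67 ± 0.13, adjusted p = 0.00992). Its mean TPM was above that of Rxra in MON (3.97 against 2.04) and in NEU (6.175 against 0.58). Rxrg was at 0 in all libraries. Ppard was higher in NEU (-1.45 ± 0.37, adjusted p = 0.025) and Ppara was at 0 in all libraries.

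Cholesterol synthesis genes were all tested, 20 of 20, with 8 higher in MON and 1 in NEU, 11 passing in neither direction, and a median of 0.78. The NEU count was 2 without either MON library. Msmo1, Hmgcs1 and Ebp, enzymes of the pathway, were higher in MON by 1.53 ± 0.14 (adjusted p = 0.000651), 1.47 ± 0.13 (adjusted p = 0.000664) and 1.404 ± 0.173 (adjusted p = 0.00201). Sc5d, a late enzyme of the pathway, was the exception at -1.28 and was named after its values were seen.

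Fatty acid synthesis had 6 of 12 tested genes higher in MON and 2 in NEU, with a median of 0.57. The MON count was 3 without NEU replicate 1 and 2 without NEU replicate 2, and the NEU count was 1 without either. Scd1, the stearoyl-CoA desaturase, went the other way from the median, with 528 and 532 CPM in NEU and 68.3 and 86.6 in MON (-2.78 ± 0.14, adjusted p = 9.58e-05). Elovl5, an elongase of polyunsaturated fatty acids, had 177 and 195 CPM in MON and 55.1 and 53.5 in NEU (1.77 ± 0.10, adjusted p = 0.000141).

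Fatty acid oxidation had 7 of 21 tested genes higher in MON and 4 in NEU, with a median of 0.30. The MON count was 3 without NEU replicate 1 and 4 without NEU replicate 2, and the NEU count was 1 and 2. Etfb, which passes on electrons from the acyl-CoA dehydrogenases, was higher in MON by 2.20 ± 0.21 (adjusted p = 0.000867), and Acaa2, a mitochondrial thiolase, by 1.45 ± 0.21 (adjusted p = 0.00349). The subunits of the mitochondrial trifunctional protein were 0.07 ± 0.11 for Hadha (adjusted p = 0.648), which was not called, and 0.69 ± 0.11 for Hadhb (adjusted p = 0.00572), a call lost without NEU replicate 1, at 0.64.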

How the data were processed

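Total RNA from blood monocytes and neutrophils was compared in 4 libraries, 2 per group, grouped by the labels' descriptions. Per the labels the RNA was depleted of ribosomal RNA and amplified by PCR without molecular identifiers. The authors aligned reads to mm10 with STAR and quantified genes with RSEM in the ENCODE long RNA pipeline. The deposited tables hold RSEM expected counts, posterior mean counts with their SD, effective lengths, and TPM that the authors' RSEM run scaled per library. Genes shorter than 300 bases hold 74.2 to 79.2% of TPM, so expected counts carried the tests.

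Each table had 69690 entries. Spike-ins and numeric identifiers, at most 0.000594% of counts, were left out of totals, leaving 43346 genes. Names and coordinates came from GENCODE M21 on mm10 by identifier without version (98.0% matched). Expected counts were rounded, filtered with filterByExpr and scaled by TMM (factors 0.994 to 1.01). The edgeR 4.0.16 quasi-likelihood F test (R 4.3.3) was run on 14309 genes and called those with a Benjamini-Hochberg adjusted p under 0.05. Of these 6092 (42.6%) were called. The SE is the absolute log2 fold change divided by the square root of F. A group at 0 counts was given a floor of 3 counts over the group. The replicate libraries differed beyond sampling noise, with a chi-square per degree of freedom of 42.2 in MON and 24.6 in NEU, so none is a copy. SDs and p-values measure only the spread between these libraries, which may be technical. The script was tested on simulated data with the same spread for all genes in both groups. In these libraries the biological coefficient of variation was 46.2% in MON and 14.7% in NEU. The simulation therefore does not show how the fit behaves at such an unequal spread.

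The 9 genes, the 9 pathway lists and the 13 lists of cell type markers were chosen with earlier results of these data known. Apart from the 9 genes, the named genes were in each pathway list the 2 most abundant by mean TPM and the 2 with the greatest called fold change among those with at least 5 TPM in both libraries of the higher group, the 3 nearest genes to each of 3 members, and the most abundant gene of a marker list. A gene that this rule takes is not reported here. Others are said to be named after their values were seen, as were the markers named one by one. Alternatives were DESeq2 1.42.0 size factors and test, library total, upper-quartile factors, no filter, a filter of 10 CPM in 2 libraries, limma 3.58.1 on log2(TPM + 1) and log2(TPM + 0.1), posterior mean counts, an effective length offset, leaving out mitochondrial and the 10 most abundant genes, and leaving out each library.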

Additional observations from a re-analysis of the deposited data

Results flagged for a closer look

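Entries named as spike-in controls, which no comparison used, had 85 counts in MON replicate 1 and 16 in MON replicate 2, against 0 in both NEU libraries. Where these counts came from was not tested. Groups of 2 libraries are too small to mark a single library as an outlier.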

How the results depend on the processing

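The 9 genes kept the sign of their log2 fold change in every one of the 15 alternatives that could be fitted, and 116 of their values stayed within the spread between replicates while 16 moved beyond it. Their ranges were 4.07 to 4.23 for Apoe, 5.002 to 5.894 for Cd36, 0.08 to 0.23 for Fabp5, 0.07 to 0.18 for Abcg1, -1.59 to -1.24 for Abca1, 2.03 to 2.51 for Plin2 and 2.42 to 4.69 for Lpl, which had no value with a filter of 10 CPM or in limma. Of all tested genes 3118 were higher in NEU, against 1801 in limma on log2(TPM + 1) and 1688 on log2(TPM + 0.1), where fewer genes were tested, and between 1810 and 4675 with 1 library left out. The count higher in MON, 2974, ran from 1984 to 3987 with 1 library left out. Of the pathway genes 34 were higher in NEU, against 15 on log2(TPM + 1), 14 on log2(TPM + 0.1), 22 with an effective length offset, and between 18 and 46 with 1 library left out. The count higher in MON ran from 38 to 63 with 1 library left out. Fewer genes were tested in the limma fits, but more with 1 library left out, at 15179 to 15406 against 14309. Replicates varied more in MON, with a biological coefficient of variation of 46.2%, than in NEU, with 14.7%. The cause of these moves was not tested. Without a replicate, the lone library of its group is assumed to vary like the other group. Of the named pathway genes, Apobr, Osbpl9 and Ncor1 lost their calls in both limma fits, Hsd17b11 in limma on log2(TPM + 0.1), and Osbpl9 with an effective length offset. No called log2 fold change of a named gene changed sign. Of those not called, Hadha did without MON replicate 2 (-0.07), and Nr1h2 did in the limma fits (0.22 and 0.23), with an effective length offset (0.26) and without NEU replicate 2 (0.06). In addition, the balance of counts turned: more genes were higher in MON than in NEU in limma on log2(TPM + 1) (2232 against 1801) and log2(TPM + 0.1) (2189 against 1688), without NEU replicate 1 (1984 against 1810) and without NEU replicate 2 (2072 against 1913), with an effective length offset (2617 against 2557) and with the filter of 10 CPM (2615 against 2566). The nuclear receptor list had 3 in MON against 3 in NEU on log2(TPM + 1) and 3 against 2 on log2(TPM + 0.1), and 4 against 4 without NEU replicate 1, and fatty acid uptake went from 3 in MON and 1 in NEU to 3 and 5 without MON replicate 2. No scaling moved the median of all genes by more than 0.042 on the log2 scale. No paired analysis was possible because the replicate numbers follow deposit order only. Precision is limited by 2 libraries per group, and in NEU by the 10 to 12 counts behind Fabp4 and Pparg.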
